A study of Mus musculus with 12 samples.

Results

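The nuclear genes for the mitochondrial respiratory chain, the mitochondrial ribosome and the protein import channels were read in mouse hippocampus across 4 groups of arrays. Members were all genes whose platform symbol begins with Nduf, Cox and a digit, Uqcr, Atp5, Sdha to Sdhd, Mrpl or Mrps and a digit, Timm and a digit, or Tomm and a digit. A gene also needed a probe set with that symbol alone and a value over 4 (log2) in at least 3 of the 12 arrays, and the probe set with the highest mean stood for the gene. Of 51 genes with such a name, 38 were members, among 6334 probe sets that passed the same level and 12411 on the array. The other 13 genes had no probe set at that level and were not measured. Their probe sets and the further ones of members that stayed below the level numbered 17, with no single value above 3.82.

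The arrays (MG-U74B, an Affymetrix 3' expression array) were hybridised with total RNA of the hippocampus, and each of the 4 groups had 3 arrays. The groups were control animals given saline, control animals given kainate, mutant animals given saline and mutant animals given kainate. Kainate, an agonist of glutamate receptors that induces seizures, was injected intraperitoneally at 20 mg/kg, and animals were killed 1 h later. Mice of both sexes, littermates of 5 to 6 weeks, were housed singly and handled for 5 days, and each array held the pooled RNA of 3 animals, so the spread between single animals was not measured. The series title gives the mutation as the loss of the transcription factors CREB and CREM, which bind cAMP response elements. The labels name neither the alleles nor the cells in which the genes were lost, and call the arrays of a group biological replicates 1, 2 and 3. Because whole tissue was measured, fewer cells of a type and less RNA per cell cannot be told apart.

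The respiratory chain passes electrons from NADH and succinate through membrane complexes to oxygen, and most of its subunits are encoded in the nucleus. A separate ribosome inside the organelle makes the few subunits encoded by mitochondrial DNA. Most proteins made in the cytosol enter through the TOM channel of the outer membrane, and those bound for the matrix or the inner membrane then pass the TIM23 or TIM22 channel. Neurons depend on this machinery for the ATP that restores ion gradients after firing.

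The 38 members held 5 subunits of the respiratory chain, 9 assembly factors, 18 proteins of the mitochondrial ribosome and 6 import components. The subunits were Ndufs7 of complex I, Sdhb and Sdhc of complex II, and Cox4i1 and Cox6a1 of complex IV. Of complex III only Uqcrc1 had a matching probe set, which lay below the level (mean 2.14). No probe set carried an Atp5 symbol alone, so the ATP synthase was not assayed here. The values below thus say nothing about those complexes. Mean levels over the 12 arrays ran from 3.80 for Mrpl53 to 10.3 for Ndufs7, but levels of different probe sets are not comparable between genes. Of the members, 34 were over 4 in all 12 arrays, while Mrpl53 was in 3, Mrps5 in 4, Mrps14 in 8 and Sdhaf3 in 9. The probe sets of Cox4i1, Cox6a1, Mrps23, Mrps28 and Sdhc carry the suffix f, which marks probes shared with similar sequences, so their signal may hold other transcripts. In 11 members the highest and the lowest array were over 1 log2 unit apart. Among the steadiest were Mrps25, with an SD of 0.05 over all 12 arrays, and Cox4i1 and Tomm40l, each with an SD of 0.07.

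**Figure D1:**
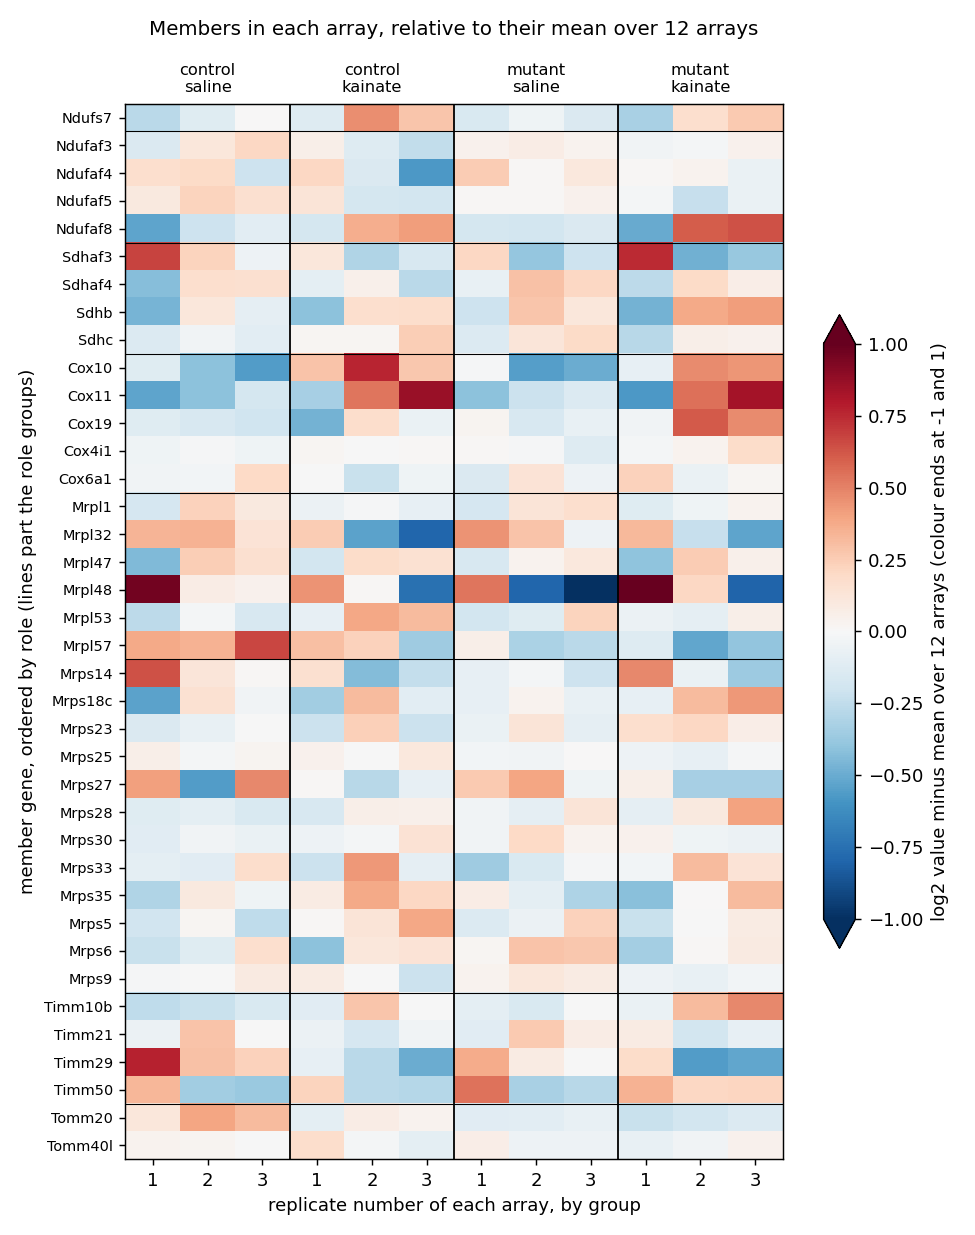
The 38 members (rows, ordered by role) in the 12 arrays (columns, ordered by group and replicate number), coloured by the log2 value minus that probe set's mean over the 12 arrays. Columns of replicate number 1 differ from those of numbers 2 and 3 in many rows. Cox11 is higher in kainate columns numbered 2 and 3, and Cox10 in those and in the control kainate column numbered 1. Timm29 is lower in the 3 control kainate columns and in mutant kainate columns numbered 2 and 3.

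Arrays numbered 1 stood apart from the rest. The first principal component of the members took 56.0% of their variance and separated them (52.8% over all tested probe sets). The difference of the 3' and 5' Gapdh control probe sets, a measure of RNA quality, ran from -0.42 to -0.36 log2 units in the 4 arrays numbered 1 and from -0.33 to -0.03 in the other 8, without overlap. The same measure on actin overlapped, from 1.44 to 1.82 over all arrays. Over all tested probe sets, same-number arrays deviated together from their group means in all 18 pairs (r from 0.361 to 0.881). Results are therefore also given from a fit with the replicate number as a block. In the members alone the r of such pairs ran from -0.01 to 0.84, so some pairs did not deviate together there. Dusp5, a phosphatase induced by ERK signalling, parted the treatments in all numbers, at 7.91 to 8.17 with saline and 10.3 to 10.8 with kainate. It was chosen with earlier results of these data known, so it is no independent check of the treatment labels. Creb1, measured by one probe set, did not check the genotype label in the direction of loss. It was at 6.83 to 7.58 in control arrays and at 7.64 to 8.47 in mutant arrays, and the probe set of Crem lay at 2.82 to 3.35 in all 12, below the level. The position of these probe sets relative to the deleted parts could not be checked, so mutant below means the arrays labelled mutant.

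The sequences before the gene starts are shown first for 4 of the members that carry the results below. Cox10 had the largest kainate difference of the members in controls and averaged over both genotypes (in mutants Mrpl48, at 0.67, was larger and did not pass), Timm29 and Mrpl32 were lower with kainate, and Tomm20 was lower in the labelled mutant arrays. Each is the run of 250 bases up to the start site, 5′ to 3′ on the gene's strand, from RefSeq on GRCm38.p6. They lie at chr11:64079473-64079722 on the minus strand for Cox10, chr9:21592472-21592721 on the plus strand for Timm29, chr13:14613038-14613287 on the minus strand for Mrpl32 and chr8:126945922-126946171 on the minus strand for Tomm20. Capitals mark matches, on either strand, to the core TGACG of the cAMP response element, the NRF1 core (GCGCA and GCGC with any base between them) or the ETS core CCGGAAG, letters bound in other systems by CREB, by NRF1 and by factors such as GABP.
Cox10: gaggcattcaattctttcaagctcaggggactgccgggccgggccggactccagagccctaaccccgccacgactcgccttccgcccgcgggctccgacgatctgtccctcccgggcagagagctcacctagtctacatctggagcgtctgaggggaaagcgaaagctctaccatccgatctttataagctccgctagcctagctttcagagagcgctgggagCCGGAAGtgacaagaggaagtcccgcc
Timm29: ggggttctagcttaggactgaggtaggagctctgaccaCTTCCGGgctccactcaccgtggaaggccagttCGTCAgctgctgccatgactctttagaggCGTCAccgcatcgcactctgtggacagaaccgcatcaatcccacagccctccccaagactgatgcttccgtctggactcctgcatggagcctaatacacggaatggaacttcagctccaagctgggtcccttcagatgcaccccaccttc
Mrpl32: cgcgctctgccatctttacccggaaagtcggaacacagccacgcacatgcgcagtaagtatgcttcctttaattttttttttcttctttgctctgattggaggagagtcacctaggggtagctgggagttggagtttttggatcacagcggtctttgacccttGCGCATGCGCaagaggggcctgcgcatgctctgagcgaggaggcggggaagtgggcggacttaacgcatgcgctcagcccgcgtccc
Tomm20: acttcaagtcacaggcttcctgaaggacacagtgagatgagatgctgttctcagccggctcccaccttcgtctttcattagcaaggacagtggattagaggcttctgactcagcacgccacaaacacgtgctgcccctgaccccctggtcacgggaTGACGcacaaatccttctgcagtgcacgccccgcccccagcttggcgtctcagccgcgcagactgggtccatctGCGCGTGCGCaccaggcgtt
The marked letters differ between the 4 shown. Cox10 had an ETS core, and Timm29 an ETS core and a pair of TGACG cores. Mrpl32 had an NRF1 core, and Tomm20 a TGACG core and an NRF1 core. Cox11 also passed with the block over both genotypes, and its sequence is not shown. Its promoter window, of the span given in the next paragraph, held 0 matches to the TGACG, NRF1 and ETS cores.

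Promoter windows, from 250 bases before to 50 after a start, were held for 32 of the 38 members. The full cAMP response element TGACGTCA was in 0 of them, against 3.6% of the 3749 tested genes with a window. The core TGACG, which also lies inside the full one, was in 13 members (40.6%), against 36.6% of tested genes. The NRF1 core was in 9 members (28.1%), against 11.5%, and the ETS core in 14 (43.8%), against 18.8%. TATAAA was in 4 members (12.5%), against 8.2%. Over all 27025 genes of the table the NRF1 core was in 5.2%, the ETS core in 9.9% and TATAAA in 15.7%. Median GC content was 60.3% in the members' windows and 62.0% in those of tested genes. A match describes letters in a window and shows neither binding nor its absence.

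The first comparison was kainate against saline in control animals, which asks how these transcripts differed 1 h after the injection of kainate. No member passed an adjusted p of 0.05 (limma, Benjamini-Hochberg over 6334 probe sets), where 0.158% of all probe sets did, and 1 member, Timm29, passed with the replicate block, where 0.584% did. The 38 members had a median log2 difference of 0.02, from -0.71 to 0.80, beside 0.02 over all tested probe sets with 1 symbol, and 22 lay above 0. At an unadjusted p under 0.05 there were 6 members (15.8%), against a background of 11.6%. Mrpl53 and Mrps5 were among them, and both reached the level of 4 partly through control kainate arrays. With the block 12 members had such a p (31.6%), against 25.6%. The values of kainate and saline arrays did not overlap in 7 members (18.4%), against 19.4% of all probe sets. Those were Cox10, Cox4i1, Sdhc and Timm10b on the higher side and Timm29, Tomm20 and Mrpl57 on the lower side.

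In the labelled mutant arrays, 0 members passed without the block (background 0.174%) and 0 with it (0.363%). The median was -0.01, from -0.45 to 0.67, beside -0.04 over all, and 1 member had an unadjusted p under 0.05 (2.63%, background 6.28%). With the block 9 members had such a p (23.7%, background 15.5%). Kainate and saline arrays did not overlap in 3 members (7.89%, background 9.13%), Mrps9, Ndufaf5 and Tomm20, all on the lower side.

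Averaged over both genotypes, 0 members passed without the block (background 0.41%) and 7 had an unadjusted p under 0.05 (18.4%, background 14.7%). Such a p was reached by 10 members with the block (26.3%, background 28.2%). With the block 4 members passed (10.5%), against a background of 7.63%: Cox10 and Cox11 rose, and Timm29 and Mrpl32 fell. The fit with quantile normalization added to the block called the same 4. Without the arrays numbered 1 and with no block, 9 members passed (23.7%), against a background of 22.3%. In each of these counts the members' share was near that of all probe sets.

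In complex IV the calls fell on assembly factors, and the 2 measured subunits passed in none of the fits. Cox10, the farnesyltransferase that makes heme O on the way to the heme A of complex IV, read 5.42, 5.13 and 4.98 in control saline arrays and 5.82, 6.30 and 5.81 in control kainate arrays. In the labelled mutant it read 5.52, 4.98 and 5.04 with saline and 5.45, 6.01 and 5.98 with kainate. All 3 control kainate arrays lay above all control saline arrays, while the mutant kainate array numbered 1 lay within its saline range. The kainate difference was 0.80 ± 0.22 (SE, n = 3 against 3) in controls and 0.63 ± 0.22 in mutants. In the text, here and below, the SE after ± is that of the fit without the block. Over both genotypes it was 0.71 ± 0.15, or 1.64-fold (limma adjusted p = 0.0893, and 0.0289 with the block). A further Cox10 probe set gave 0.09 ± 0.23 over both genotypes (limma adjusted p with the block 0.599), so the rise was seen in 1 of the gene's 2 tested probe sets.

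Cox11 inserts copper into complex IV. It read 4.43, 4.55 and 4.78 in control saline arrays, 4.63, 5.50 and 5.82 in control kainate arrays, 4.55, 4.74 and 4.82 in mutant saline arrays and 4.38, 5.51 and 5.79 in mutant kainate arrays. In both genotypes the kainate arrays numbered 2 and 3 stood above every saline array, and those numbered 1 did not. The averaged difference was 0.63 ± 0.26 (SE with the block 0.15), or 1.54-fold (limma adjusted p = 0.299, and 0.0376 with the block). Its probe set carries the suffix r, which marks a set for which some of the design rules for probes were dropped.

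Cox19, a copper-handling partner of Cox11, read 7.35, 7.31 and 7.27 with saline and 7.00, 7.65 and 7.40 with kainate in controls, and 7.50, 7.31 and 7.39 with saline and 7.43, 8.08 and 7.95 with kainate in the labelled mutant. The mutant kainate arrays numbered 2 and 3 were the highest of the 12. The kainate difference was 0.04 in controls and 0.42 in mutants, and neither passed with or without the block. Its further tested probe set gave -0.26 and 0.10, but had a mean of 3.79 and was over 4 in only 3 of the 12 arrays. Of the structural subunits, Cox4i1 stayed between 7.09 and 7.41 in all arrays and Cox6a1 between 6.97 and 7.42, with averaged kainate differences of 0.08 and -0.03.

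In complex I, no member passed over all 12 arrays. Ndufaf8, which stabilises the enzyme that modifies Ndufs7 during assembly, read 8.69, 9.01 and 9.11 in control saline arrays and 9.04, 9.58 and 9.64 in control kainate arrays. In mutants it read 9.04, 9.03 and 9.07, then 8.71, 9.82 and 9.85. Again only kainate arrays numbered 2 and 3 stood above all saline arrays. The averaged difference was 0.45 (limma adjusted p = 0.332, and 0.0596 with the block). Ndufs7, an iron-sulfur subunit of the core, read 10.04, 10.19 and 10.31 with saline and 10.17, 10.78 and 10.59 with kainate in controls, and 10.15, 10.26 and 10.16, then 9.98, 10.48 and 10.57 in mutants, with an averaged difference of 0.24 (0.0933 with the block, limma adjusted p). Ndufaf5, the enzyme that modifies Ndufs7, had an averaged difference of -0.18, and the early assembly factors Ndufaf3 and Ndufaf4 of -0.11 and -0.17, none of which passed.

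The complex II genes gave no call. Sdhb, the iron-sulfur subunit of succinate dehydrogenase, ran from 7.60 to 8.49, and the 4 arrays numbered 1 were its 4 lowest. Sdhc, a membrane anchor of the same enzyme, read 4.55, 4.65 and 4.58 in control saline arrays and 4.70, 4.71 and 4.93 in control kainate arrays, without overlap, but its difference of 0.19 did not pass. The assembly factors Sdhaf3 and Sdhaf4 had averaged kainate differences of -0.15 and -0.11.

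**Figure D2:**
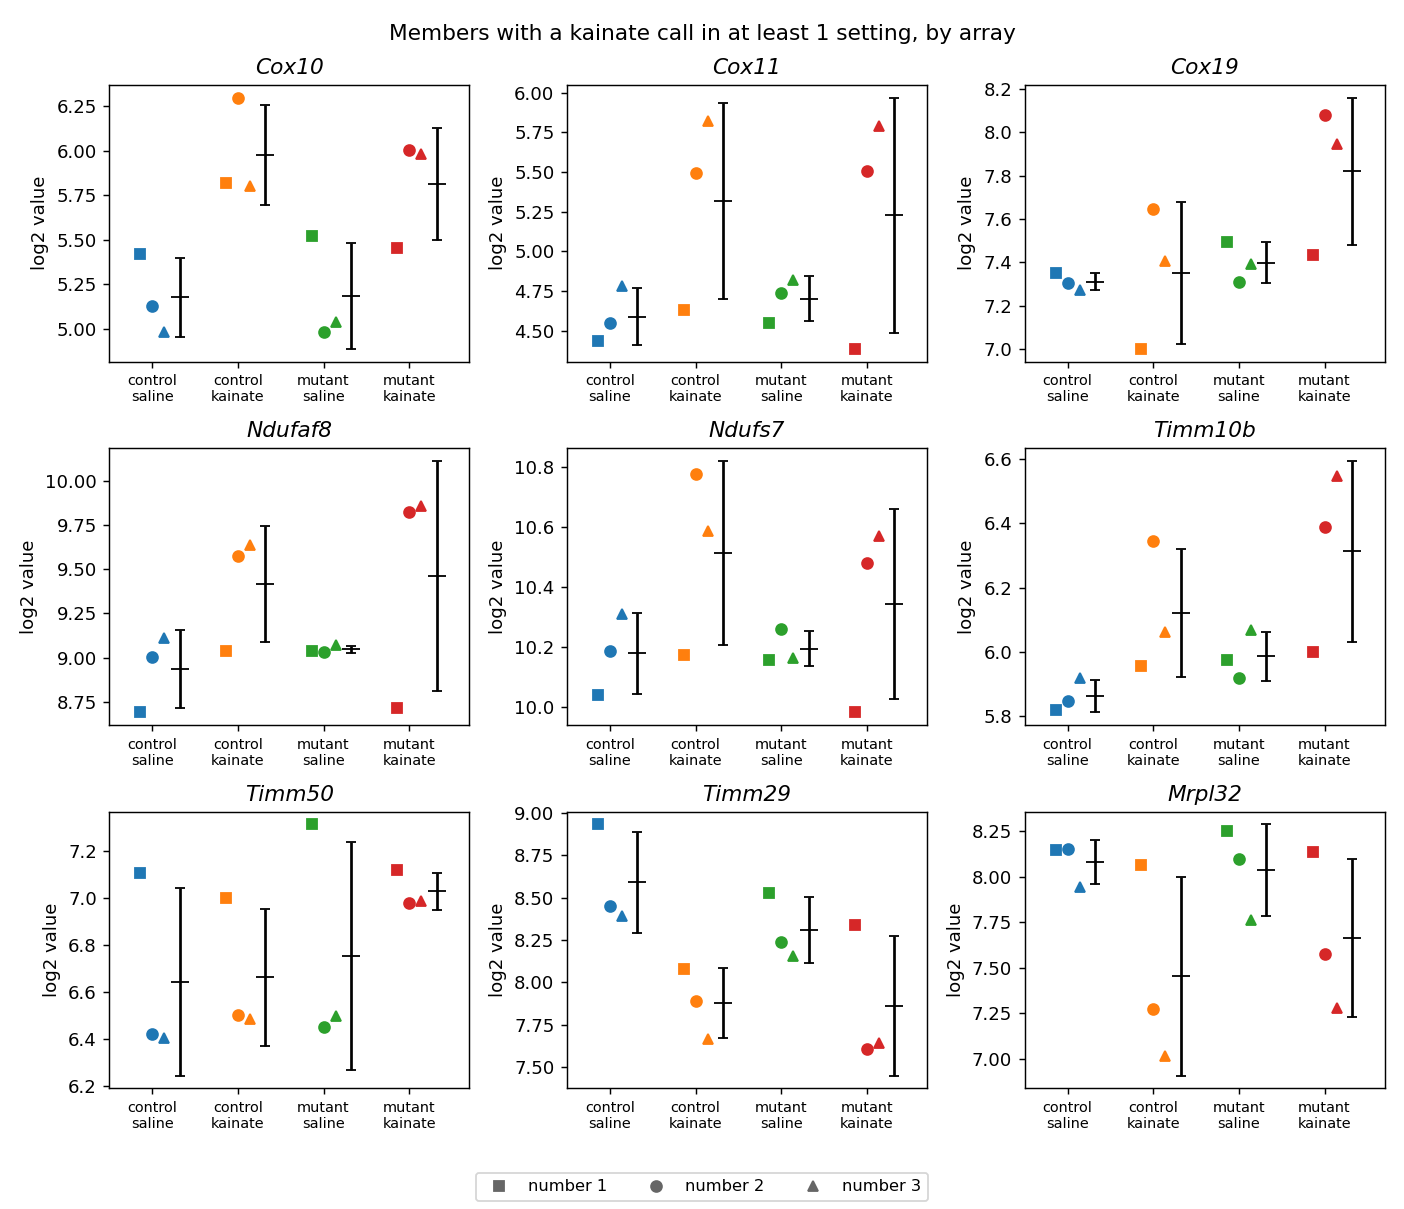
Log2 values of 9 members (one panel each) in the 4 groups, with one point per array (squares, circles and triangles for replicate numbers 1, 2 and 3) and bars for the mean ± SD of 3 arrays. For Cox11 and Ndufaf8 the kainate circles and triangles lie above all saline points in both genotypes while the squares do not, and for Timm29 all 3 control kainate points lie below the control saline points.

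Among import genes, Timm29 was lower with kainate and was the one member whose averaged call with the block did not depend on a single array. It is a component of the TIM22 translocase, which inserts metabolite carriers into the inner membrane. It read 8.93, 8.45 and 8.39 in control saline arrays and 8.08, 7.89 and 7.67 in control kainate arrays, and 8.53, 8.24 and 8.16 with saline and 8.34, 7.61 and 7.64 with kainate in the labelled mutant. Control groups did not overlap, and in mutants only the kainate array numbered 1 lay within the saline range. The difference was -0.71 ± 0.23 in controls (1.64-fold lower; limma adjusted p = 0.424, and 0.0263 with the block). In mutants it was -0.45 ± 0.23 (0.144 with the block, limma adjusted p). Over both genotypes it was -0.58 ± 0.16, or 1.49-fold lower (limma adjusted p = 0.154, and 0.00617 with the block). SEs with the block were 0.11 in controls and 0.08 over both genotypes. The block fit kept this averaged call in all 12 fits that each left out 1 array, with adjusted p (limma) from 0.00259 to 0.0305, but kept the call in controls alone in 5 of 12. A further Timm29 probe set had the same sign, -0.44 in controls, -0.37 in mutants and -0.41 averaged (limma adjusted p with the block 0.0754), and did not pass.

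The other inner membrane members did not pass over all arrays. Timm10b, a small chaperone of the TIM22 route, read 5.82, 5.85 and 5.92 in control saline arrays and 5.96, 6.34 and 6.06 in control kainate arrays, and its averaged difference was 0.29 (limma adjusted p = 0.0772 with the block). Timm50, the receptor of the TIM23 channel, read 7.11, 6.42 and 6.40, then 7.00, 6.50 and 6.49 in controls, and 7.32, 6.45 and 6.50, then 7.12, 6.98 and 6.99 in mutants. It was higher in every array numbered 1 than in any other array, so its groups were spread mainly by replicate number. Timm21 of the TIM23 channel had an averaged kainate difference of -0.15. In the outer membrane, Tomm40l, a relative of the channel protein of the TOM complex, stayed between 9.40 and 9.67.

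The mitochondrial ribosomal proteins moved little as a group. The 12 small-subunit members had a median averaged kainate difference of 0.04, from -0.32 to 0.19, and the 6 large-subunit members of -0.04, from -0.50 to 0.18. Mrpl32, a large-subunit protein that the m-AAA protease trims before the ribosome is assembled, was the one that passed. It read 8.15, 8.15 and 7.94 in control saline arrays, 8.07, 7.27 and 7.02 in control kainate arrays, 8.26, 8.10 and 7.76 in mutant saline arrays and 8.14, 7.58 and 7.28 in mutant kainate arrays. The kainate arrays numbered 2 and 3 were the 4 lowest of the 12, and those numbered 1 stayed among the saline arrays. The averaged difference was -0.50 ± 0.20 (SE with the block 0.11), or 1.42-fold lower (limma adjusted p = 0.287, and 0.0337 with the block).

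Smaller differences in ribosomal members did not pass in any fit over all arrays. In controls Mrpl53, whose probe set carries the suffix i, differed with kainate by 0.35. Mrps5, whose probe set also has the suffix r, differed by 0.31. Both had means under 4 over the 12 arrays. Mrpl53 was over 4 only in control kainate arrays numbered 2 and 3 and the mutant saline array numbered 3. Mrps5 was over 4 in those and in the mutant kainate array numbered 3. Both thus reached the level partly through the group where they read higher, so these differences are no support for a rise. In mutants Mrps27 differed by -0.40 and Mrps6 by -0.27. Mrps9, from 4.77 to 5.09 over all arrays, Mrps25, from 5.18 to 5.37, and Mrps30, from 6.34 to 6.65, were the steadiest of the 18, and Mrps23 had the highest mean of the small subunit, 8.59.

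The calls for Cox10, Cox11 and Mrpl32 rested on arrays numbered 2 and 3. By number, the control kainate difference of Cox10 was 0.40, 1.17 and 0.82 in numbers 1, 2 and 3, and the mutant difference -0.07, 1.02 and 0.94. For Cox11 these were 0.20, 0.95 and 1.04, then -0.16, 0.77 and 0.97. For Mrpl32 they were -0.08, -0.88 and -0.93, then -0.12, -0.52 and -0.48. In number 1 the mutant differences of Cox10 and Cox11 thus had the opposite sign. Timm29 had the same sign in every number, -0.85, -0.56 and -0.72 in controls and -0.19, -0.64 and -0.51 in mutants.

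Over all members the median size of the averaged kainate difference was 0.0754 in number 1, 0.203 in number 2 and 0.222 in number 3, and over all tested probe sets 0.0987, 0.188 and 0.185. A size over 0.3 was reached by 2, 15 and 11 members in that order (5.26%, 39.5% and 28.9%), against 11.6%, 34.0% and 29.1% of all probe sets. Kainate differences were thus smaller in number 1 over all probe sets as well as in the members. The mean level of 7 genes chosen with earlier results known (Dusp5, Csrnp1, Maff, Fosl2, Spry2, Rgs4 and Trib1) was higher with kainate in every number. In controls it was 7.16 with saline and 9.03 with kainate in number 1, then 7.22 and 9.02, and 7.19 and 8.88. In mutants it was 7.22 and 8.89, 7.12 and 9.29, and 6.99 and 8.99 by number. The Gapdh measure given above also sets number 1 apart, and its part in the smaller differences was not tested. Leaving any one array numbered 2 or 3 out of the block fit ended the averaged calls of Cox10, Cox11 and Mrpl32, and leaving out one numbered 1 kept them. The differences themselves stayed of like size in those 12 fits, from 0.63 to 0.84 for Cox10, 0.55 to 0.75 for Cox11 and -0.59 to -0.44 for Mrpl32.

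**Figure D3:**
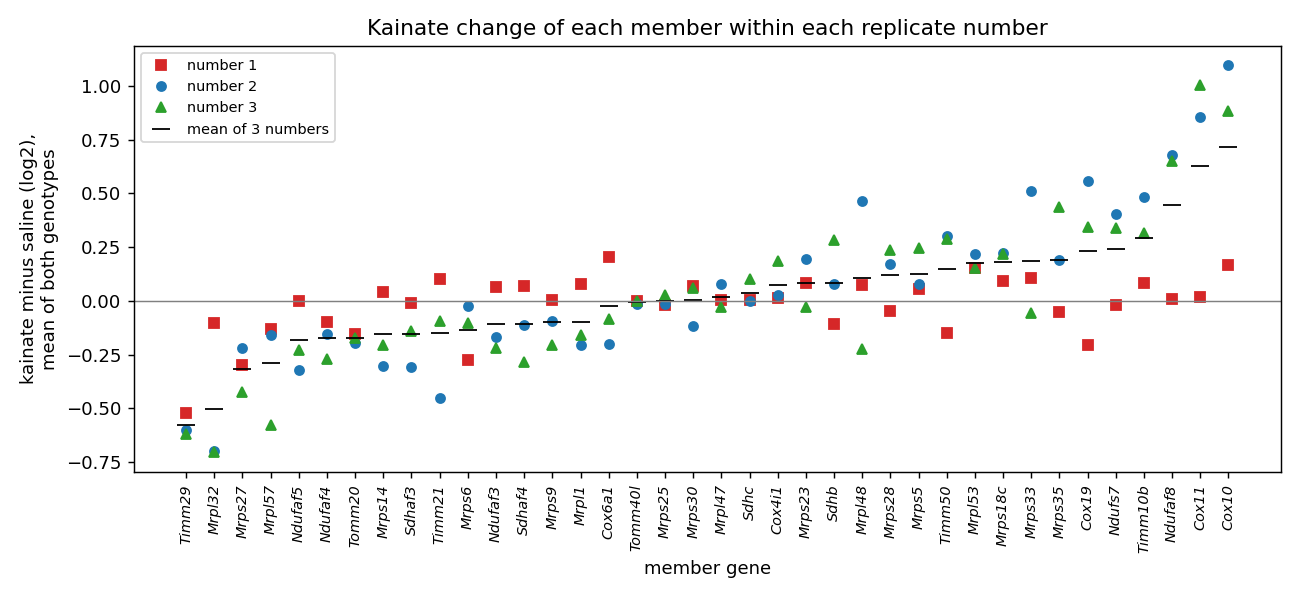
Kainate minus saline (log2, mean of both genotypes) of the 38 members in replicate numbers 1, 2 and 3, one point per member and number. Number 1 is the narrowest, with a median size of 0.0754 against 0.203 and 0.222 in numbers 2 and 3.

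When the arrays numbered 1 were left out, the calls became wider in both genotypes, as over all genes. Those arrays had the smaller kainate differences, so wider calls without them are no independent support for the changes. Kainate against saline in controls then gave 6 members (15.8%, background 10.1%), with 2 arrays in each group. Cox10 (1.00), Cox11 (0.99), Ndufaf8 (0.55) and Ndufs7 (0.43) rose and Mrpl32 (-0.90) and Timm29 (-0.64) fell, with limma adjusted p from 0.00933 to 0.0254. In mutants 6 members passed (15.8%, background 9.41%). Cox10 (0.98), Cox11 (0.87), Ndufaf8 (0.78), Cox19 (0.66) and Timm50 (0.51) rose and Timm29 fell (-0.57), with limma adjusted p from 0.00211 to 0.0338. The averaged comparison added Timm10b (0.40, limma adjusted p = 0.0262) to these genes. Among all 12 single-array omissions without the block, only that of the mutant kainate array numbered 1 gave calls, 4 members (10.5%, background 3.84%): Cox10, Cox11, Ndufaf8 and Timm29.

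The difference of the kainate changes, mutant minus control, asks whether the response depended on genotype. With or without the block 0 members passed, as did 0.0% of all probe sets, and 0 had an unadjusted p under 0.05 without the block (background 2.32%), against 4 with it (10.5%, background 8.94%). The median was 0.03, from -0.37 to 1.12, beside -0.02 over all. The largest was that of Mrpl48, a large-subunit protein. It read 6.24, 5.35 and 5.32 with saline and 5.73, 5.29 and 4.53 with kainate in controls, and 5.81, 4.49 and 4.14, then 6.47, 5.48 and 4.48 in mutants. Kainate minus saline was -0.51, -0.07 and -0.78 in control numbers 1, 2 and 3, and 0.66, 1.00 and 0.34 in mutant ones, so every number had a negative value in controls and a positive one in mutants. Its difference of changes was 1.12 ± 0.79 (SE without the block) and did not pass (limma adjusted p = 0.545 with the block). Within numbers 1, 2 and 3 that difference was 1.17, 1.06 and 1.12. The smaller values of Mrps14 (0.54), Mrps5 (-0.37), Mrpl53 (-0.35) and Sdhc (-0.30) did not pass either. Mrps5 and Mrpl53 had means under 4 and reached the level partly through control kainate arrays. The matching probe sets below the level also had higher means with kainate in controls, and most had lower ones in mutants. The part of that shift in the values of Mrps5 and Mrpl53 was not tested. For Timm29 the difference was 0.27, for Cox10 -0.17, for Cox11 -0.20 and for Mrpl32 0.26, so a genotype effect on these kainate changes was not detectable. The median 95% interval of a member reached 0.58 log2 units either side of such a difference.

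Mutant against control with saline asks what the mutation had done at rest. With saline, 0 members passed without the block (background 0.0%) and 0 with it (0.142%). The median was 0.01, from -0.82 to 0.25, beside 0.02 over all, and 2 members had an unadjusted p under 0.05 (5.26%, background 3.88%). With the block 7 members had such a p (18.4%, background 9%). Groups did not overlap in 6 members (15.8%, background 8.81%), Tomm20, Mrpl57, Mrps14 and Ndufaf5 lower and Mrps28 and Mrps30 higher. With kainate, 0 members passed without the block (background 0.0632%) and 0 with it (0.111%), 1 had an unadjusted p under 0.05 (2.63%, background 4.67%), and Tomm20 and Mrps25, both lower, did not overlap (5.26%, background 10.7%). The median was 0.01, from -0.41 to 0.47. Averaged over both treatments, 0 passed without the block (background 0.253%) and Tomm20 fell with it (2.63%, background 2.32%). An unadjusted p under 0.05 with the block was reached by 4 members (10.5%, background 13.6%).

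Tomm20 is the receptor of the TOM complex that binds presequences of incoming proteins. It read 9.27, 9.55 and 9.47 in control saline arrays, 9.06, 9.23 and 9.20 in control kainate arrays, 9.04, 9.05 and 9.08 in mutant saline arrays and 8.94, 8.98 and 9.02 in mutant kainate arrays. Mutant arrays lay below control arrays with either treatment, and kainate arrays below saline arrays in either genotype. The genotype difference was -0.37 ± 0.10 with saline (1.29-fold lower) and -0.18 ± 0.10 with kainate, and neither passed with or without the block. Averaged, it was -0.28 ± 0.07, or 1.21-fold lower (limma adjusted p = 0.201, and 0.0462 with the block). That call is near the threshold: the block fit without any one of the 12 arrays gave adjusted p (limma) from 0.0623 to 0.144, and the block with quantile normalization gave 0.0607. The kainate difference of Tomm20 was -0.27 in controls and -0.08 in mutants and passed in no fit. Groups accounted for 85.1% of its variance over the arrays, the highest share of the 38 members, against a median of 32.1%.

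Mrpl57, a large-subunit protein, followed in the same direction. It read 5.56, 5.54 and 5.86 with saline and 5.49, 5.42 and 4.83 with kainate in controls, and 5.24, 4.87 and 4.92, then 5.05, 4.67 and 4.79 in mutants. The saline groups did not overlap and the kainate groups did. The difference was -0.64 with saline, -0.41 with kainate and -0.52 averaged, or 1.44-fold lower (limma adjusted p = 0.224, and 0.057 with the block), and did not pass. With the block it passed in 2 of 12 fits that left out 1 array, those without control kainate array 3 (-0.63, limma adjusted p = 0.0254) and without control saline array 1 (-0.60, 0.0421). The largest genotype difference with saline was that of Mrpl48, -0.82 (-0.43, -0.87 and -1.18 by number; limma adjusted p = 0.194 with the block). With saline Sdhaf3 (-0.41) and Mrps14 (-0.36) were lower and Mrps30 (0.14), Sdhc (0.15) and Mrps6 (0.25) were higher in the labelled mutant arrays. With kainate Cox19 (0.47), Timm50 (0.37) and Mrps23 (0.21) were higher and Mrpl53 (-0.24) was lower. Mrpl53 reached the level of 4 partly through control kainate arrays. None of these differences passed the threshold.

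**Figure D4:**
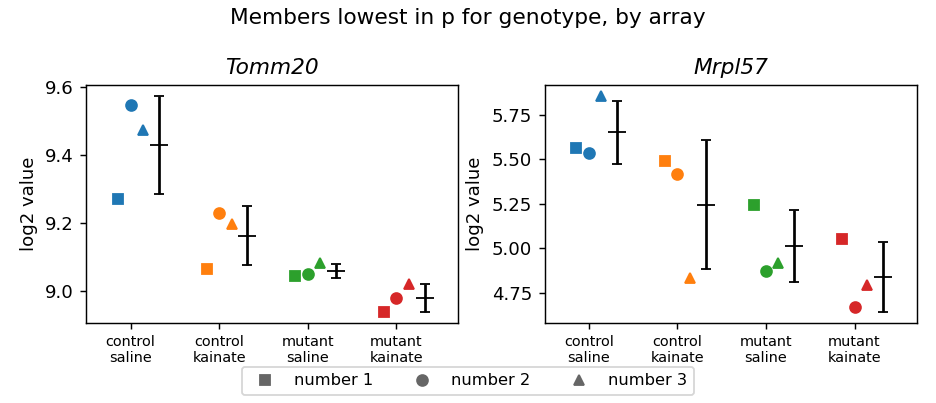
Log2 values of Tomm20 and Mrpl57 in the 4 groups, one point per array (squares, circles and triangles for replicate numbers 1, 2 and 3) with bars for the mean ± SD of 3 arrays. Mutant saline and mutant kainate points of Tomm20, from 8.94 to 9.08, lie below those of the control group of the same treatment.

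Markers of cell types also differed with genotype. The marker lists were chosen with earlier results of these data known. Which markers passed is therefore no independent support for a shift in cell types. All 5 measured microglial markers were higher in the labelled mutant arrays over both treatments, with a median of 0.62, and 1 passed without the block (Plek, 1.24, limma adjusted p = 0.042) and 4 with it (Plek, Tgfbr1, Olfml3 and Siglech). Their mean level ran from 5.87 to 6.04 and 6.08 to 6.17 in control saline and kainate arrays, and from 6.30 to 6.76 and 6.67 to 6.98 in mutant ones, without overlap. All 8 measured astrocyte markers were higher, with a median of 0.19, and 0 passed without the block and 3 with it (Aqp4, Mlc1 and Ednrb). Their mean level was higher in the mutant array of every replicate number: 9.13, 9.83 and 9.76 in control and 9.37, 10.14 and 9.98 in mutant saline arrays, and 9.07, 9.66 and 9.62 in control and 9.32, 9.80 and 9.89 in mutant kainate arrays. Arrays numbered 1 were lower in all groups, and Glul, one of the markers, read 7.25 to 7.51 there and 12.06 to 12.47 in the other 8 arrays. Of 6 measured markers of principal neurons 4 were lower, with a median of -0.24. Bcl11b (-0.84) and Fibcd1 (-0.62) passed with the block, and the list's mean level was 8.93 to 9.23 and 9.07 to 9.19 in controls and 8.50 to 8.97 and 8.75 to 8.85 in mutants. The 3 measured interneuron markers were lower with kainate, with a median of -0.50 over both genotypes. Their mean level was 7.91 to 8.17 with saline and 6.87 to 7.56 with kainate in controls, and 7.88 to 8.18 and 7.47 to 7.91 in mutants. The 4 measured vascular markers had a median kainate difference of 0.10, and the 2 measured oligodendrocyte and 2 measured choroid plexus markers had medians of -0.33 and -0.65. Markers below the level of 4 were not used, so none of the measured ones was at 0, and the part of these markers in the members' results was not tested.

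Precision set what could be seen. The median 95% interval of a member reached 0.41 log2 units either side for a pair of groups and 0.29 for an averaged comparison. Over all 12 arrays without the block, the interval lay within 2-fold of no difference in 31 to 37 of the 38 members across the comparisons, and within 1.5-fold in 20 and 21 for kainate in controls and mutants, 13 for the difference of changes, 24 for genotype with either treatment, 29 for the averaged kainate comparison and 33 for the averaged genotype comparison. Replicate number accounted for a median of 32.5% of a member's variance, group for 32.1% and the residue for 26.7%, beside 33.7%, 30.0% and 28.0% over all tested probe sets. Group took over 50% in 8 members (21.1%, against 18.7% of all tested probe sets), among them Cox10 (71.4%), Mrpl57 (69.8%) and Timm29 (62.2%).

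Among 73 measured genes of 7 further mitochondrial lists, none passed without the block in any comparison. For kainate over both genotypes, the block fit called 4 of the 73 (5.48%, against a background of 7.63%), 3 lower and 1 higher. Rrm2b, a ribonucleotide reductase subunit that supplies nucleotides for mitochondrial DNA, fell by 0.58 (1 of 8 measured genes of DNA maintenance and transcription). Pdhx of the pyruvate dehydrogenase complex fell by 0.30 (1 of 8 of the citric acid cycle and that complex), and Higd1a, a factor of the respiratory chain, by 0.27 (1 of 14 respiratory partners and assembly factors). Gatb, of the amidotransferase that charges mitochondrial glutamine tRNA, rose by 0.51 (1 of 11 translation genes). Their limma adjusted p with the block ran from 0.0277 to 0.0421.

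For genotype over both treatments the block fit called 2 of the 73 (2.74%, background 2.32%). These were Cmc1, a complex IV assembly factor, higher by 0.42 (limma adjusted p = 0.0353) and Gatc, the partner of Gatb, lower by 0.33 (0.0497). None of 9 other import genes, 7 regulators or 16 genes of mitochondrial shape and transport passed with or without the block. The smallest unadjusted p of those lists belonged to Afg3l1 (0.31 in mutants with saline), Prkaa2 (0.32 in mutants with kainate) and Mtfp1 (-0.25).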

How the data were processed

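Hippocampal RNA was measured on 12 arrays, 3 in each of 4 groups. The deposited table holds 1 log2 value per probe set and array, made by the authors with GCRMA in R 2.4.1, a background correction by probe sequence with a summary over probes, per the submitters' processing notes. The settings used by the authors were not stated in the labels, and depth has no meaning for arrays: the number of arrays limits the precision. The members and gene lists were chosen with earlier results of these data known, and so were the comparisons averaged over genotypes or treatments.

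After removal of 66 control probe sets, 6334 of 12411 probe sets had a value over 4 in at least 3 arrays and were tested; 5925 of them had 1 symbol in the platform annotation. The model of limma 3.58.1 (R 4.3.3; lmFit, then eBayes with an intensity trend) gave each group a mean and used all 12 arrays, for 7 comparisons, with Benjamini-Hochberg adjustment at 0.05 over all tested probe sets. Groups share the replicate numbers 1 to 3. Over all tested probe sets, arrays of one number deviated together in all 18 pairs, and for 12 of 12 the best correlation was with the same number. The numbers thus pair the arrays, but what a number stands for is not in the labels. Numbers 2 and 3 also correlated with each other (r from 0.309 to 0.583), so the pairing mainly sets number 1 apart. In the members alone the best match could be another number, as for control saline 2 with mutant saline 3 (r = 0.519). The pairing comes from the numbers in the sample titles and from these correlations. Alternatives were the block, quantile normalization, centring on the median, other levels, no trend, another probe set per gene, and left-out arrays. The block with left-out arrays was chosen after seeing the data.

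Members named were those that passed in any comparison, the 3 highest and 3 lowest by p in each comparison of groups, the highest of each role, and those with a discordant further probe set; other genes were named after their values were seen. The fit without the block was tested on simulated data with independent noise in each array. The simulation held no effect of replicate number, and the block fit was not simulated. Coordinates and promoter sequences are from RefSeq (GRCm38.p6); scanner files were not used here.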

Additional observations from a re-analysis of the deposited data

How the results depend on the processing

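The number of members past the threshold was 0 in all 7 comparisons without the block. With the replicate number as a block it was 1 for kainate in controls, 4 for kainate over both genotypes and 1 for genotype over both treatments, and with the block and quantile normalization 1, 4 and 0. In arrays numbered 2 and 3 alone, kainate gave 6 members in controls, 6 in mutants and 9 over both genotypes, and with the block added 6, 7 and 9. Leaving out 1 array gave 0 to 4 members for kainate over both genotypes without the block and 1 to 7 with it, and with the block 0 to 2 for kainate in controls, 0 to 2 in mutants and 0 to 1 for genotype over both treatments. The block changed no other call.

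Quantile normalization, with or without the block, moved the median member change to 0.0686 for kainate in controls and 0.046 over both genotypes. Centring each array on its median moved it to -0.13 for kainate in controls, 0.22 for the difference of changes, -0.0853 and 0.12 for genotype with saline and with kainate, and -0.0422 for kainate over both genotypes. Arrays numbered 2 and 3 alone gave 0.0277 for genotype over both treatments. Leaving out 1 array, the medians ran from -0.0812 to 0.0336 for kainate in controls, -0.0581 to 0.0381 in mutants and -0.00744 to 0.0266 averaged, and from -0.016 to 0.0309 for genotype over both treatments. The causes were not tested. No named result reversed its sign under a setting that gave it a value, and 3 of 35, all of Mrpl53, had none under quantile normalization or centring. A level of 5, no level, no trend and the probe set with the largest SD changed no call, and a level of 5 left 9 of 35 named results without a value. With 3 arrays a group, differences of a member under about 0.41 log2 units lay within the median 95% interval.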
